A study of Homo sapiens with 30 samples.

Results

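RNA recovered with TIA1 granules from arsenite-treated cells was compared between a cell line carrying mutant TIA1 and a line carrying the wild-type protein. The 6 libraries titled as granule fractions with tetracycline and arsenite, 3 from the mutant line and 3 from the wild-type line, were taken from the 30 libraries of the series by their titles. Both lines derive from Flp-In T-REx HEK293, an established human embryonic kidney line of epithelial origin in which a transgene sits at a prepared docking site and is switched on by tetracycline. One line expresses GFP fused to TIA1a with its normal sequence (WT, 3 libraries). The other expresses GFP fused to TIA1a carrying the Welander distal myopathy mutation (WDM, 3 libraries), known from a late-onset muscle disease. Both groups had received tetracycline and then 0.5 mM sodium arsenite for 60 min. Granule RNA came from immunopurified TIA1 granules and cytosol RNA from extracts, with the capture step not described further in the sources used here. A further 6 granule libraries without arsenite and 6 cytosol libraries with arsenite, 3 for each line in both cases, served for comparison. The sources used here do not say whether a line is 1 clone or whether the 3 libraries of a group came from separate cultures, so p-values measure only the spread between these libraries. These are bulk libraries, in which fewer cells that express a gene cannot be told apart from less RNA per cell.

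TIA1 is an RNA-binding protein that prefers U-rich sequence and takes part in splicing and in silencing translation. When arsenite blocks translation initiation, untranslated mRNAs and proteins including TIA1 gather in stress granules through the prion-like domain of TIA1 and scaffold proteins such as G3BP1. The Welander mutation lies in that domain. The comparison asks how the RNA in granules differs between the mutant and the wild-type line. An effect of the mutation cannot be told apart from other differences between the lines.

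The line difference in granules was made up of a small set of genes that were present in one line and nearly absent from the other, together with many modest differences. Of 18366 genes tested, 1460 were called at an edgeR adjusted p under 0.05 with Benjamini-Hochberg adjustment, which is 7.95% of genes, with 755 higher (4.11%) and 705 lower (3.84%) in WDM. The log2 fold change was 1 or more in size for 552 genes (3.01%), of which 355 were higher (1.93%) and 197 lower (1.07%). At an unadjusted p under 0.05 there were 4450 genes (24.2%). WT and WDM values did not overlap for 5017 genes (27.3%), WDM above for 13.0% and below for 14.3%. Of 13722 protein-coding genes tested, 519 were called higher and 625 lower (8.34% called, median log2 fold change -0.04). Of 3434 lncRNAs tested, 208 were higher and 55 lower (7.66% called, median 0.15). Both called shares were near the 7.95% of all genes. Leaving out 1 library gave 569 to 1719 genes, the fewest without WT replicate 1 (2.97%, with 1.34% higher and 1.63% lower), and 947 without WT replicate 3, 838 without WDM replicate 1 and 847 without WDM replicate 3. Scaling by library size alone called 896 genes higher and 461 lower, 66.0% higher instead of 51.7%, and moved the median of all genes from 0.00 to 0.08 on the log2 scale.

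Total counts ran from 18864056 to 26935119 in WT and from 22179071 to 27419145 in WDM, and 3 counts correspond to 0.107 to 0.176 CPM here. CPM values are counts scaled to a common library total with TMM factors, given for replicates 1, 2 and 3 of each group in that order. The first principal component of the 6 libraries held 54.0% of the variance and separated the lines. TIA1 itself had 0 counts in all 6 libraries, so it gave no check of the line labels or of induction. The locus of TIA1 overlaps that of C2orf42, though only 3.19% of TIA1 exon length is shared with it or another gene on the strand, and C2orf42 was not called (log2 -0.10, adjusted p 0.773). Other genes that all cells use, including EIF4A1, HNRNPA1, SDHA and the ribosomal protein gene RPL17, were also listed at 0, so a listed 0 is no evidence of absence unless other groups show counts for that gene. TIAL1, the closest relative of TIA1, had 82.6, 83.6 and 70.2 CPM in WT and 83.6, 77.1 and 68.3 CPM in WDM (log2 -0.05, SE 0.166, adjusted p 0.899).

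Fold changes between the lines rose with the GC content of the transcripts in arsenite granules. Sorted into 10 equal bins by transcript GC content, the median log2 fold change ran from -0.20 in the lowest bin (26.7 to 38.2% GC) to 0.27 in the highest (61.1 to 83.9% GC). The lowest bin held 43 genes called higher and 120 called lower, and the highest bin 185 higher and 14 lower. Across 18316 genes, which share these libraries and are not independent, Spearman's rho between GC content and log2 fold change was 0.364. The same rho was -0.177 between the lines without arsenite and -0.0954 in arsenite cytosol, of opposite sign. WT replicate 1 stood furthest from the other libraries: when genes were divided into 5 GC bins, the lowest lay 0.27 above the mean of the 6 libraries on the log2 scale and the highest at -0.30. The 3 WDM libraries leaned the other way, with -0.14, -0.03 and -0.12 in the lowest bin and 0.12, 0.07 and 0.18 in the highest. WT replicates 2 and 3 were nearer 0 than WT replicate 1 in both bins, with 0.01 and -0.01 in the lowest and -0.07 and 0.04 in the highest.

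When each library's GC trend was removed with offsets, rho was 0.0155 and 1189 genes were called (6.47%), 558 higher (3.04%) and 631 lower (3.44%). The 10 bins then held 66 higher and 57 lower at the bottom and 53 higher and 65 lower at the top. Of the 1460 genes called without offsets, 969 were also called with them and 491 were not. A further 220 genes were called only with offsets. Among the 552 genes with the larger differences, 474 were also called with offsets and 366 without WT replicate 1. Without WT replicate 1, rho was still 0.224, and 559 of its 569 calls were among the 1460. With offsets as well, 587 genes were called without that library (3.06%). Most counts for gene lists below are therefore also given with GC offsets or without WT replicate 1. Called shares over all genes, against which list counts are read, were 4.11% higher and 3.84% lower, 3.04% and 3.44% with GC offsets, and 1.34% and 1.63% without WT replicate 1.

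**Figure D1:**
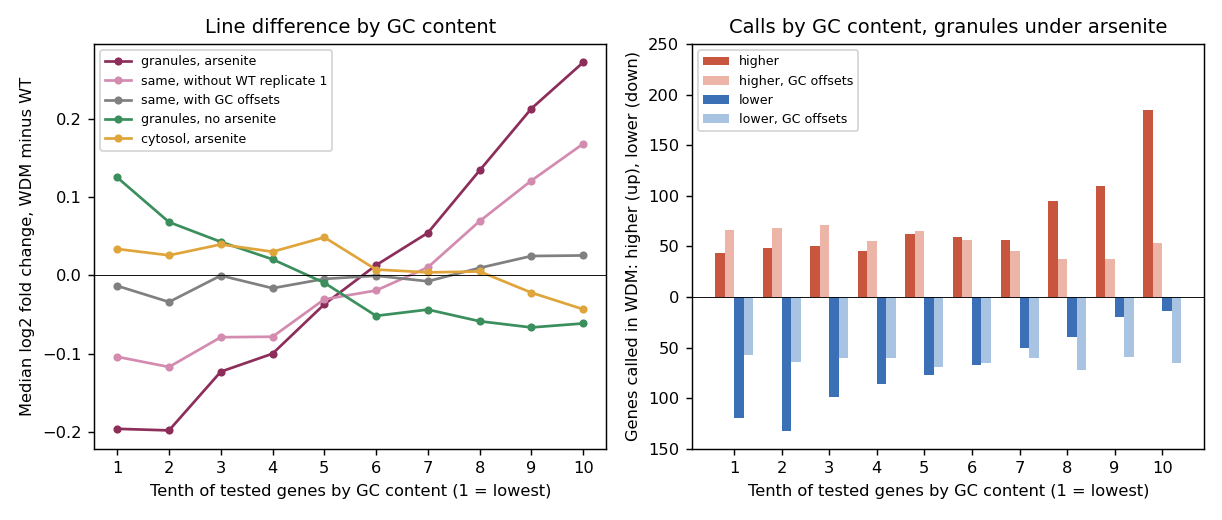
Left, median log2 fold change (WDM minus WT, vertical axis) in 10 bins of the tested genes by GC content (horizontal axis) for 5 comparisons; right, number of genes called higher (upward bars) and lower (downward bars) in WDM in each bin, with and without GC offsets. The arsenite granule medians climb from -0.20 to 0.27, stay near 0 with offsets, and slope the other way in granules without arsenite.

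The genes with the largest differences were named by a rule of size, taking 12 in each direction that had a symbol, were called, averaged 5 CPM or more in their higher group and did not overlap. All 24 stayed called with GC offsets, without WT replicate 1 and in every other alternative tried. GSTP1 (ENSG00000084207, chromosome 11, 67583742 to 67586656), a glutathione transferase that detoxifies electrophiles, had 0 counts in the 3 WT libraries and 7.07, 6.27 and 6.70 CPM in WDM, with no overlap. Against a floor of 3 counts in the smallest WT library it was at least 38-fold higher (adjusted p 1.1e-11). In arsenite cytosol the same gene had 0.0497 ± 0.0431 CPM in WT and 78.7 ± 4.59 CPM in WDM (SD, n = 3); this table therefore does count the gene. ZNF804A (chromosome 2, 184598529 to 184939492), a zinc-finger gene expressed mainly in brain, had 0.936, 0.865 and 0.828 CPM in WT and 169, 235 and 157 CPM in WDM (log2 7.73, SE 0.247, adjusted p 1.04e-18). All WDM libraries were far above all WT libraries.

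KCNT2, a sodium-activated potassium channel, had 1.17, 0.865 and 0.339 CPM in WT and 71.2, 67.1 and 70.0 CPM in WDM (log2 6.52), and KCNJ3, a G-protein-gated potassium channel, differed by log2 4.50. DOK6, an adaptor of receptor tyrosine kinases, had 0.376 to 0.936 CPM in WT and 111, 107 and 100.2 CPM in WDM (log2 7.35). GPR173, an orphan G-protein-coupled receptor, had 8 counts in all in WT, at most 3 in a library, and 12.3 ± 2.82 CPM in WDM, a ratio of 105 with a counting interval of 52.9 to 243. PCDH10, a protocadherin of cell adhesion, had 2.40, 1.61 and 2.22 CPM in WT and 28.9, 43.6 and 41.1 CPM in WDM (log2 4.20). PRR16 (log2 4.91), GALNTL6, of the family that starts O-linked glycans (log2 4.39), and the lncRNAs KC6 (7.22), LINC01036 (6.38) and LINC00351 (4.75) made up the 12. By the naming rule, no WT library reached a WDM library for any of them. SYT1, the calcium sensor of synaptic vesicle release, is on the neuron marker list, of which the other 3 genes tested had negative log2 fold changes. It had 10.9, 13.1 and 6.25 CPM in WT and 139, 123 and 112 CPM in WDM (log2 3.64, SE 0.206, adjusted p 2.5e-13).

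Of the 12 lower genes, 7 encode zinc-finger proteins and STS and PUDP are neighbours on the X chromosome. ZNF738 (chromosome 19, 21358930 to 21388582) had 16.4, 12.2 and 11.6 CPM in WT and 2 counts over the 3 WDM libraries, a ratio of 498 with a counting interval of 138 to 4121. Of its exon length 18.3% lies within another gene on its strand. ZNF22 (chromosome 10) had 10.1, 5.85 and 8.02 CPM in WT and 4 counts over the WDM libraries, a ratio of 148 (57.6 to 547), with 37.9% of its exon length opposite another gene. STS, the steroid sulfatase gene whose loss causes X-linked ichthyosis, had 15.7, 14.6 and 14.3 CPM in WT and 0.987, 0.578 and 0.394 CPM in WDM (log2 -4.52, SE 0.309, adjusted p 1.26e-11). PUDP, a nucleotide phosphatase gene, had 15.9, 19.1 and 17.2 CPM in WT and 2.43, 0.784 and 0.788 CPM in WDM (log2 -3.71). WDM replicate 1 was the highest of its group for both STS and PUDP and stayed far below WT. LRRN1, a leucine-rich repeat membrane protein gene, and the lncRNAs LINC00839 and DIRC3 had log2 fold changes of -3.81, -3.68 and -3.58.

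**Figure D2:**
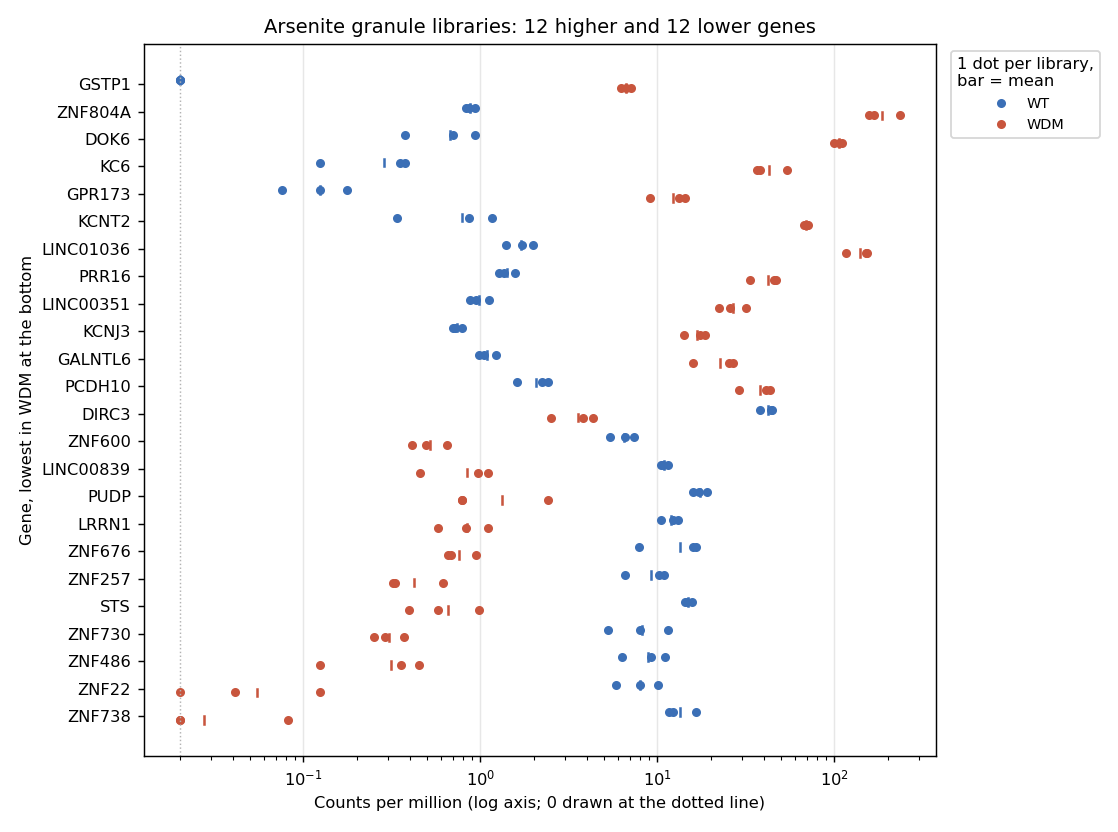
CPM (log axis) of the 12 higher and 12 lower genes in each of the 6 arsenite granule libraries; dots are libraries, short bars are group means, and a count of 0 is drawn at the dotted line. For every gene the 3 WT and 3 WDM libraries are separate, as the naming rule requires, with 0 counts of GSTP1 in WT and 2 counts of ZNF738 in WDM.

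Genes that were close to absent in one line were counted separately, as those with 3 counts or fewer in every library of one group and at least 1 CPM on average in the other. There were 11 such genes present in WDM, 4 of them protein-coding and 7 lncRNAs, and 5 present in WT, 4 protein-coding and 1 lncRNA. The protein-coding genes present in WDM were GSTP1, GPR173, P2RY6, a receptor for extracellular nucleotides, and IFI16, an innate sensor of DNA. P2RY6 had 0.0585, 0.0412 and 0 CPM in WT and 4.32, 2.15 and 3.19 CPM in WDM. Those present in WT were ZNF738, ZNF22, MATN3, a cartilage matrix protein gene, and an unnamed gene on chromosome 17. In arsenite cytosol, 10 of the 11 and 4 of the 5 could be tested, and all were called in the same direction. In granules without arsenite all 11 and all 5 were.

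Zinc-finger genes of chromosome 19, mostly KRAB repressors that arose by tandem duplication, included more genes called lower than higher in WDM. Of 188 tested, 35 were called lower and 2 higher, against 3.84% lower and 4.11% higher over all genes, and 144 had a negative log2 fold change. Their median was -0.29, against 0.00 over all genes. With GC offsets 25 were lower and 1 higher and the median was -0.19, and without WT replicate 1 19 were lower and 1 higher, with the same median of -0.19. With both changes 18 were lower and 1 higher and the median was -0.13. The list's level per library, the median over its genes of the log2 level minus that gene's mean over the 6 libraries, overlapped between groups: WT replicate 2, at -0.0607, was below WDM replicate 2, at -0.0573. These transcripts are GC-poor, with a median GC content of 41.9%, against 47.6% over all genes. Cytosol under arsenite had 25 lower and 6 higher with a median of -0.04 (5.37% and 4.98% over all cytosol genes), and the median without arsenite was -0.06. The named genes ZNF738, ZNF486, ZNF730, ZNF257, ZNF676 and ZNF600 belong to this list, along with ZNF93 (log2 -4.07), ZNF208 (-3.44) and ZNF253 (-2.58). ZNF444 and ZNF491 were the genes called higher, at log2 0.54 and 1.68; ZNF444 had an adjusted p of 0.147 with GC offsets and 0.185 without WT replicate 1.

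The cluster between 20 and 25 Mb of chromosome 19, a stretch chosen after the values were seen held both strongly lower genes and genes not called. Of its 25 zinc-finger genes tested, 10 were called lower, again 10 with GC offsets and 10 without WT replicate 1, and 24 were negative. ZNF486 (chromosome 19, 20167214 to 20200488) had 9.19, 6.30 and 11.0 CPM in WT and 0.452, 0.124 and 0.358 CPM in WDM (log2 -4.79, SE 0.350, adjusted p 4.43e-11). ZNF257 (chromosome 19, 22052430 to 22091480) had 10.9, 6.55 and 10.3 CPM in WT and 0.617, 0.330 and 0.322 CPM in WDM (log2 -4.44). ZNF43 (chromosome 19, 21804946 to 21852125) was still well expressed in WDM, with 99.6, 72.2 and 97.4 CPM in WT and 33.1, 37.8 and 35.2 CPM in WDM (log2 -1.34, adjusted p 1.31e-06). Between these genes lay ZNF430 and ZNF431, with log2 fold changes of -0.20 and 0.01 (adjusted p 0.522 and 0.980). The 163 zinc-finger genes elsewhere on chromosome 19 had 25 lower and 2 higher, 15 lower and 1 higher with GC offsets, and 9 lower without WT replicate 1. The 222 on other chromosomes had 18 lower and 6 higher, 16 lower and 5 higher with GC offsets, and 9 lower without WT replicate 1.

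The 250 bases before the start of 3 genes called lower and 2 not called of this cluster are shown to compare called with uncalled members of one cluster of related genes; CCAAT, in either orientation, is in capitals. Sequences are from RefSeq on GRCh38.p14, read along the gene's strand, and RefSeq starts can differ from the gene bounds given above.
ZNF486 (chr19:20166964-20167213, plus strand): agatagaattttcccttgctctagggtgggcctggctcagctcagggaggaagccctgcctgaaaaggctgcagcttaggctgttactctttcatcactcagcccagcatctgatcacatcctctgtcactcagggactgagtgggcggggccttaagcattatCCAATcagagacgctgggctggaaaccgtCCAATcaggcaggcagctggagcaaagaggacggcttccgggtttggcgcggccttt
ZNF257 (chr19:22052234-22052483, plus strand): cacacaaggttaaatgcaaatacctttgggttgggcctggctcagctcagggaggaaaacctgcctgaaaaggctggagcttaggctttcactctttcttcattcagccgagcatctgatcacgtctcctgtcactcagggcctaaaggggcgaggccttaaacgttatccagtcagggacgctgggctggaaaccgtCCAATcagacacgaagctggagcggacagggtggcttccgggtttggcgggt
ZNF43 (chr19:21836183-21836432, minus strand): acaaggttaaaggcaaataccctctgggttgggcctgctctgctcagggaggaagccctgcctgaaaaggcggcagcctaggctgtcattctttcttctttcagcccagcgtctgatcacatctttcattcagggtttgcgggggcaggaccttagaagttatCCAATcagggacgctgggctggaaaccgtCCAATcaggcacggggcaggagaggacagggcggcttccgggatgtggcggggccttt
ZNF430 (chr19:21020407-21020656, plus strand): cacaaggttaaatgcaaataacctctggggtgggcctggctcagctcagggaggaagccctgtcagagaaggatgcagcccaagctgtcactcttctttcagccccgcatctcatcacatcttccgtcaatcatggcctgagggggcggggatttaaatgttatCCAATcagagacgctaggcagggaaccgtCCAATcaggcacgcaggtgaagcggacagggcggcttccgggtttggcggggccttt
ZNF431 (chr19:21141790-21142039, plus strand): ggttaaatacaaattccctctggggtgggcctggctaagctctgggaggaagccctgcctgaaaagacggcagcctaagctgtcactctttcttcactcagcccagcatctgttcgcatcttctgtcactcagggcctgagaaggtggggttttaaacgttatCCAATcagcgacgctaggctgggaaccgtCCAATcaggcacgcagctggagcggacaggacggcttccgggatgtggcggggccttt
CCAAT or its reverse complement ATTGG was present in all 8 matched promoters of the cluster's lowered genes. The same held for all 14 matched promoters of the cluster's genes not called, against 35.1% of 10827 protein-coding genes tested. The element was therefore shared by these matched promoters and did not separate genes called lower from those not called. The dinucleotide CG occurred at least 10 times in 37.5% of the lowered and 28.6% of the other promoters of the cluster, against 83.7% of all genes tested.

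The promoter of GSTP1 is shown for contrast, since it is a CG-dense promoter known to be silenced by methylation in some tumours; each CG is in capitals.
GSTP1 (chr11:67583562-67583811, plus strand): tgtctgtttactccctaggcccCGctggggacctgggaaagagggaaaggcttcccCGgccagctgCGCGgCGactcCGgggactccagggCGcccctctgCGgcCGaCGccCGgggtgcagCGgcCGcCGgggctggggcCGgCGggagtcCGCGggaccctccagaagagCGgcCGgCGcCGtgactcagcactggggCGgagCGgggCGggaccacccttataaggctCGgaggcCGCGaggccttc
It holds 28 CG in 250 bases, against a median of 21 over genes tested. The promoter of GPR173, also near absent in WT, holds 8. Among 143 matched protein-coding genes called higher by log2 1 or more, 60.1% of promoters held at least 10 CG, and among 120 called lower by as much, 75.0% did. Over all matched protein-coding genes tested the share was 83.7%. These shares describe the promoters only, and methylation was not tested.

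On the X chromosome a stretch between 6 and 9 Mb was also chosen after the values were seen. Its 3 genes tested, PUDP, STS and ANOS1, were all lower in WDM. ANOS1, whose loss causes Kallmann syndrome, had 109, 104 and 100.3 CPM in WT and 13.3, 11.6 and 15.3 CPM in WDM (log2 -2.96, SE 0.173, adjusted p 3.98e-13). Their median log2 fold change was -3.71 here, -3.78 without arsenite and -3.78 in arsenite cytosol.

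Runs of neighbouring genes were also lower together by smaller amounts. To keep the choice apart from the granule values, windows of 5 Mb with at least 10 genes were picked by a median of -0.3 or below in the cytosol comparison, which uses other libraries of the same lines. The 23 windows lay on chromosomes 3, 8, 16, 19 and 20 and held 924 granule-tested genes, 5.03% of all. In granules under arsenite, 229 of these were called lower (24.8%) and 7 higher, 738 were negative and their median was -0.35. Among the other 17442 genes 476 were lower (2.73%) and 748 higher. The windows thus held 32.5% of the genes called lower, and 45.5% with GC offsets, where 287 of the 924 were lower and 2 higher. Without WT replicate 1, 125 were lower. Without arsenite 227 were lower (2.95% over all genes, and 2.6% higher), with a median of -0.50. By chromosome, 37 of 78 genes were lower on chromosome 3, 46 of 137 on chromosome 8, 63 of 254 on chromosome 16 and 74 of 304 on chromosome 20. On chromosome 19 only 9 of 151 were lower and 5 higher, but 39 were lower and 0 higher with GC offsets. Chromosome 20 had 91 lower and 8 higher of 457 genes (21.7% called, median -0.23, and -0.31 with GC offsets).

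**Figure D3:**
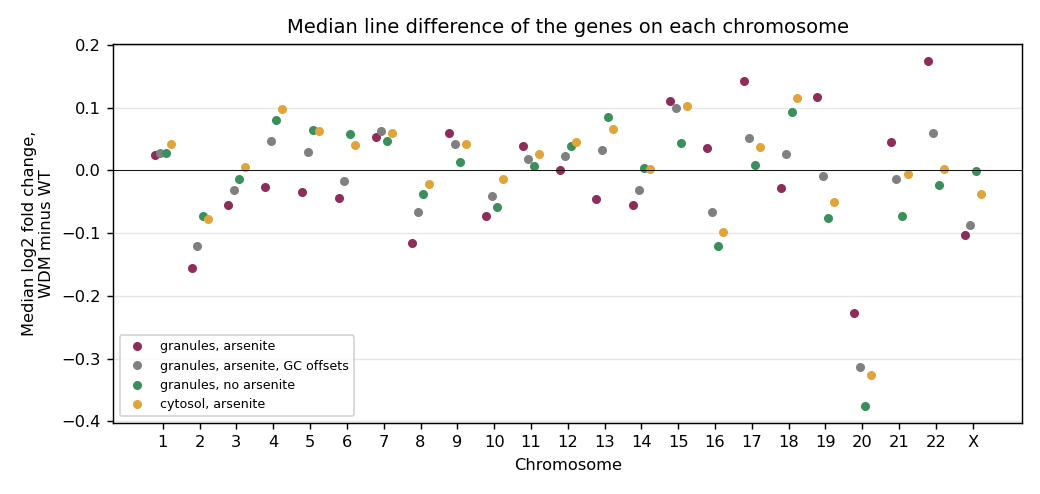
Median log2 fold change (WDM minus WT, vertical axis) of the tested genes on each chromosome (horizontal axis), in arsenite granules with and without GC offsets, in granules without arsenite and in arsenite cytosol. Chromosome 20 is lowest in all 4, from -0.23 to -0.38, and chromosomes 17, 19 and 22 lie above 0 in arsenite granules and nearer 0 with offsets.

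Lists of the granule's own machinery are small, and their few calls cannot be told apart from the 7.95% called over all genes. None of the 17 scaffold protein genes tested was called in either direction (0%, against 7.95% of all genes, median -0.08). None was with GC offsets or without WT replicate 1, and with so few genes 0 calls is near the share of all genes. None of 13 genes for prion-like RNA-binding proteins and none of 5 reported TIA1-bound mRNAs was called, with medians of -0.04 and -0.21. Of 28 processing-body and decay genes, 2 were lower and 0 higher (7.14% called, median -0.07), with 3 lower with GC offsets and 2 without WT replicate 1. CNOT7, a deadenylase of the CCR4-NOT complex on chromosome 8, had 76.2, 54.5 and 59.1 CPM in WT and 28.9, 37.7 and 34.1 CPM in WDM (log2 -0.91, adjusted p 8.95e-04). TNRC6A, the GW182 protein of microRNA silencing on chromosome 16, had 406, 355 and 405 CPM in WT and 215, 279 and 256 CPM in WDM (log2 -0.63, adjusted p 0.00817). Both lie within the lowered windows described above. Of 19 myopathy and protein quality-control genes, 1 was lower: HSPB8, a small heat-shock protein of chaperone-assisted autophagy, with 1.81, 1.69 and 2.60 CPM in WT and 0.493, 0.371 and 0.537 CPM in WDM (log2 -2.11, adjusted p 1.41e-04).

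Long transcripts usually described as granule-rich were mixed, with 2 of 20 higher and 1 lower (median -0.06), and 1 higher and 0 lower both with GC offsets and without WT replicate 1. ANKRD11, a chromatin regulator gene, had 254, 224 and 276 CPM in WT and 384, 438 and 473 CPM in WDM (log2 0.78, adjusted p 0.00189, and 0.0152 with GC offsets). KMT2D, a histone methyltransferase gene, was called higher (log2 0.67) but had an adjusted p of 0.196 with GC offsets. NORAD, the lncRNA that binds Pumilio proteins, had 1262, 838 and 992 CPM in WT and 605, 628 and 683 CPM in WDM (log2 -0.69, adjusted p 0.0492), and 0.161 with GC offsets. It lies within the lowered windows of chromosome 20 and was also called lower in arsenite cytosol (log2 -0.46, adjusted p 9.76e-04). Of 10 genes tested on a list drawn up as nuclear-retained lncRNAs, NORAD and TUG1 were lower, TUG1 with overlapping groups. Neither was with GC offsets. NORAD is also on the list of long granule-rich transcripts, so its call is no evidence about nuclear-retained RNA. Of the 6 called genes with the highest CPM, not corrected for length, PRRC2B and FASN were higher and SMG1, ERBB4, TOP2A and NORAD lower. ERBB4, a neuregulin receptor, had 1245, 1243 and 944 CPM in WT and 747, 751 and 562 CPM in WDM, and was the one of the 6 called with GC offsets (adjusted p 0.0356). Without WT replicate 1 none of the 6 was called, with adjusted p from 0.0720 to 0.349.

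Ribosomal protein and respiratory chain genes were called lower at about the share of all genes, though most had negative values. Of 80 ribosomal protein genes, 3 were lower (3.75%, against 3.84% of all genes) and 0 higher, 65 were negative and the median was -0.15 (-0.18 with GC offsets, when 3 were lower, and -0.18 without WT replicate 1, when 1 was). The 3 were RPL22L1, RPL35A and RPS15A, and all 3 lie in the lowered windows of chromosomes 3 and 16. RPL35A had 59.2, 50.3 and 60.1 CPM in WT and 30.0, 32.3 and 32.8 CPM in WDM (log2 -0.83, adjusted p 0.00711). The ribosomal median was -0.16 in arsenite cytosol and 0.29 in granules without arsenite. Of 62 respiratory chain genes, 2 were lower, ATP5MK and UQCRC2 (median -0.19), with 4 lower and 1 higher with GC offsets and 1 lower without WT replicate 1. Their median without arsenite was 0.22. Of 31 proteasome subunit genes, 5 were lower, against 3.84% of all genes, and 0 higher (median -0.28, and 0.10 without arsenite), but with GC offsets, and likewise without WT replicate 1, only PSMA7 was. PSMA7, an alpha subunit on chromosome 20, had 44.9, 42.7 and 53.3 CPM in WT and 27.6, 29.5 and 27.4 CPM in WDM (log2 -0.74, adjusted p 0.00889).

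Of 48 initiation and elongation factor genes, 2 were lower and 1 higher, 2 lower and 2 higher with GC offsets, and 0 lower and 1 higher without WT replicate 1. EIF4EBP1, the repressor of cap-dependent translation, had 16.1, 19.6 and 21.2 CPM in WT and 34.0, 27.4 and 42.7 CPM in WDM (log2 0.87, adjusted p 0.00151). Of 30 endoplasmic reticulum genes, 2 were lower (median -0.29), and with GC offsets (median -0.21), and likewise without WT replicate 1, only RPN2 was. RPN2, of the oligosaccharyltransferase, is on chromosome 20 (log2 -0.67). Of 46 replication-dependent histone genes, 1 was lower (median -0.20), 3 were with GC offsets and 1 of 47 was without WT replicate 1. The gene called with all libraries, H3C7, had 0.995, 0.330 and 1.20 CPM in WT and 1 count in all in WDM, and near-identical copies make its counts uncertain. None of 23 small nucleolar RNA host genes was called.

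Mitochondrial mRNAs, of which 13 were tested, had a median of 0.79 with every gene positive, yet none was called. Their summed level was 575 to 1430 CPM in WT and 887 to 1590 CPM in WDM, so the groups overlapped. The median was 0.85 with GC offsets and 0.38 without WT replicate 1, when 11 were positive.

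Stress-response genes differed in a few members. Of 19 integrated stress response genes, 4 were higher and 1 lower, against 4.11% and 3.84% of all genes (median 0.09), 3 higher and 0 lower with GC offsets, and 2 higher and 0 lower without WT replicate 1. SESN2, an inhibitor of mTORC1 signalling, had 68.3, 65.8 and 71.6 CPM in WT and 111, 102 and 130 CPM in WDM (log2 0.74, SE 0.148, adjusted p 0.00163). DDIT4, another mTORC1 inhibitor, had 68.6, 58.5 and 77.2 CPM in WT and 129, 100.4 and 168 CPM in WDM (log2 0.96, adjusted p 0.00177). Both had no overlap and stayed called with GC offsets (0.0129 and 0.0180) and without WT replicate 1 (0.0135 and 0.0269). PHGDH, of serine synthesis, lost its call without that library, and CHAC1, which degrades glutathione, and the kinase gene EIF2AK3, called lower, lost theirs with GC offsets. Of 24 immediate-early genes, FOSB was higher (log2 1.04) and DUSP5 and EGR2 lower (log2 -1.01 and -1.14), with 1 higher and 3 lower with GC offsets and 0 higher and 1 lower without WT replicate 1. DUSP5, a nuclear ERK phosphatase, had 48.2, 37.5 and 45.7 CPM in WT and 19.8, 22.6 and 22.8 CPM in WDM, and was the one of the 3 called without WT replicate 1 (adjusted p 0.00346). Of 15 heat-shock chaperone genes, HSPA8 was lower and HSF1 higher, and neither was called with GC offsets (0.0899 and 0.212). Of 19 NRF2 and metal-response genes, GSTP1 was the one called, and 2 were with GC offsets.

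Extracellular matrix genes moved in both directions. Of 49 collagen and laminin chain genes, 8 were higher and 3 lower, against 4.11% and 3.84% of all genes (median 0.14), 8 higher and 4 lower with GC offsets (median -0.01), and 6 higher and 3 lower without WT replicate 1. COL2A1, the main collagen of cartilage, had 31.9, 36.3 and 56.0 CPM in WT and 169, 140 and 196 CPM in WDM (log2 2.02, SE 0.234, adjusted p 5.78e-07). COL23A1, a transmembrane collagen, had 5.44, 7.33 and 6.25 CPM in WT and 41.5, 16.2 and 35.2 CPM in WDM (log2 2.28). COL3A1 and its neighbour COL5A2, both fibrillar collagens, differed by log2 1.93 and 1.05. In the other direction COL12A1, a fibril-associated collagen, had 30.8, 26.6 and 24.3 CPM in WT and 7.36, 7.67 and 7.84 CPM in WDM (log2 -1.83, adjusted p 1.11e-08). Higher and lower members alike kept separate groups.

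Solute carrier genes were called at shares near those of all genes (4.11% higher and 3.84% lower), with 13 higher and 16 lower of 263 (median 0.00), 14 and 10 with GC offsets, and 5 and 6 without WT replicate 1. SLC7A5, which imports large neutral amino acids, had 90.2, 97.0 and 120 CPM in WT and 176, 232 and 239 CPM in WDM (log2 1.07, adjusted p 1.27e-04). SLC6A9, a glycine transporter, had 12.9, 17.2 and 14.5 CPM in WT and 40.7, 32.2 and 44.2 CPM in WDM (log2 1.39, adjusted p 2.14e-06), and SLC43A1, another importer of large neutral amino acids, differed by log2 1.25. SLC1A2, the main glutamate transporter of glia, was lower, with 33.7, 24.6 and 22.6 CPM in WT and 9.21, 5.36 and 6.98 CPM in WDM (log2 -1.90, adjusted p 1.78e-07).

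**Figure D4:**
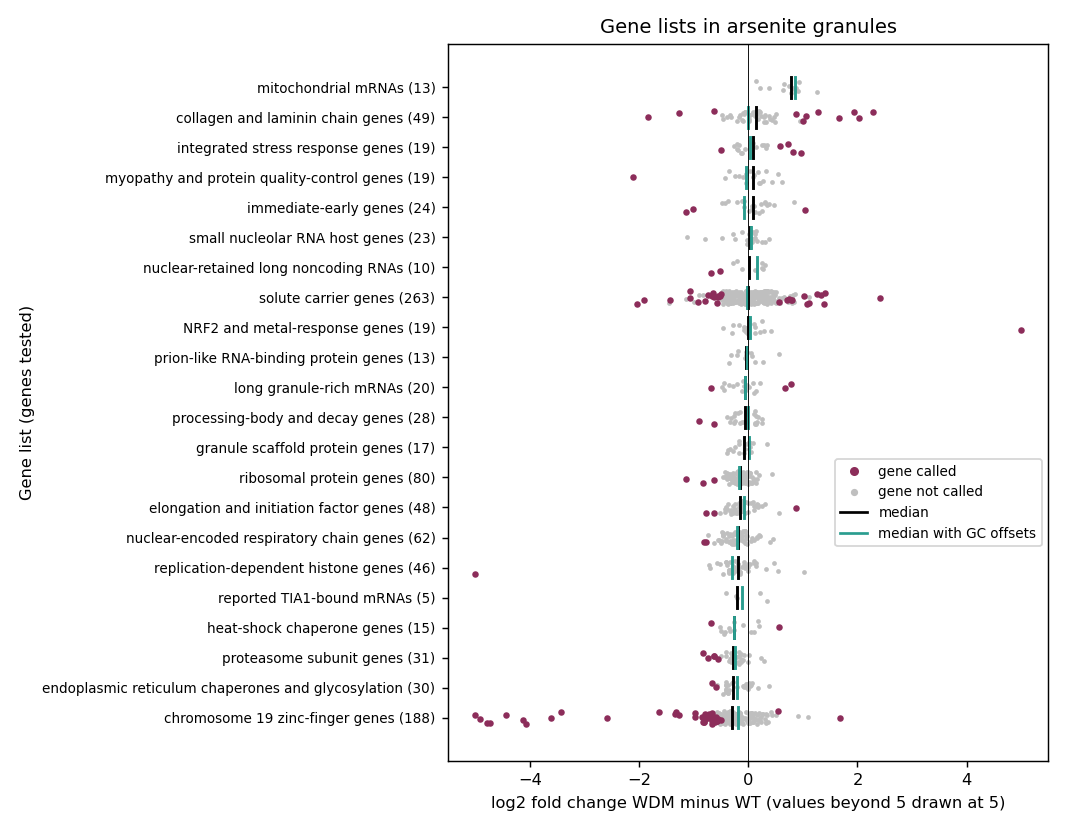
log2 fold change (WDM minus WT, horizontal axis) of each tested gene of 22 lists (vertical axis, number tested in brackets); coloured dots are called genes, black bars the list medians and green bars the medians with GC offsets, and values beyond 5 are drawn at 5. The zinc-finger list has a median of -0.29 and the mitochondrial list one of 0.79, the latter with no gene called.

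Marker genes of other cell types were looked at in the same libraries. Kidney epithelium markers (8 of 12 tested, 1 called lower, KRT19) summed to 138 to 170 CPM in WT and 101 to 131 CPM in WDM. Neuron and neural crest markers (4 of 10 tested) summed to 96.4 to 104 CPM in WT and 182 to 203 CPM in WDM. SYT1 was higher and INA lower, 1 of the 4 was positive and the median was -0.48. The rise of the sum was that of SYT1, with means of 10.1 and 125 CPM, while NEFL had means of 71.9 and 55.9 CPM and was not called. Mesenchyme markers (5 of 8 tested) summed to 191 to 249 and 181 to 216 CPM, and skeletal muscle markers (3 of 8 tested) to 15.3 to 20.8 and 20.3 to 21.5 CPM. Blood and endothelium markers (3 of 10 tested) summed to 3.92 to 4.61 and 2.76 to 3.74 CPM, with HBB at 0. The part of such markers in the gene lists was not tested.

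The line difference was then set beside that in arsenite cytosol, to see how much of it is particular to granules. Of 16670 cytosol genes 1726 were called (10.4%). Among 16159 genes tested in both, 1352 were called in granules and 1713 in cytosol, and 712 were called in both, all 712 in the same direction. That is 52.7% of the granule calls, where 10.6% of these genes were called in cytosol in all, and 41.6% of the cytosol calls. Of the 448 with a log2 fold change of at least 1 in granules, 440 had the same sign in cytosol and 334 were called there. As a description over genes that share these lines, Pearson's r of the log2 fold changes was 0.793 and Spearman's rho 0.546.

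**Figure D5:**
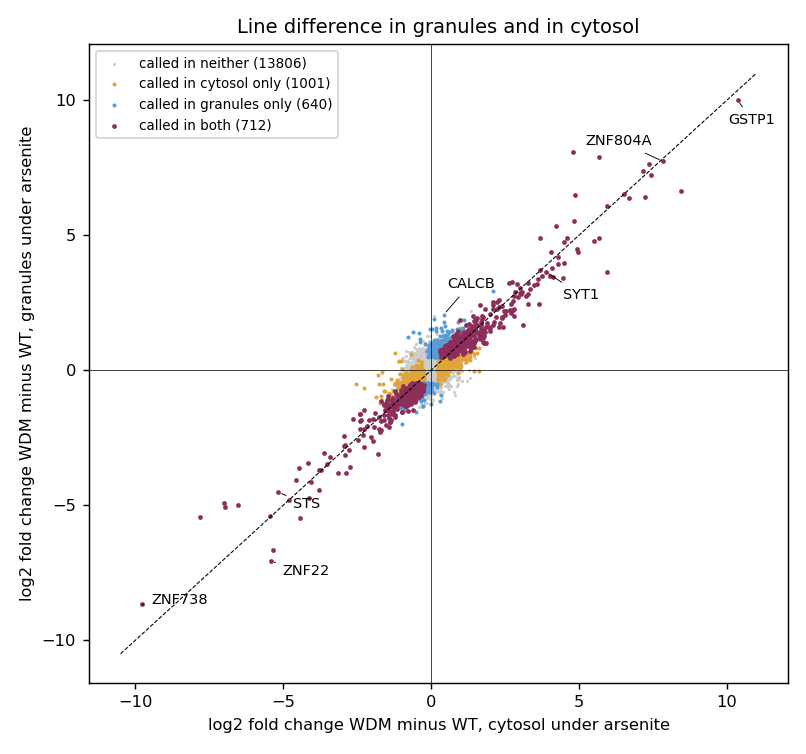
log2 fold change between lines in arsenite granules (vertical axis) against arsenite cytosol (horizontal axis) for the 16159 genes tested in both, coloured by where a gene was called; the dashed line marks equal values. The 712 genes called in both lie along the line, and CALCB lies above it.

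Whether the line difference itself differed between fractions was tested as an interaction over 24 libraries, and 1 gene of 18141 was called (0.00551%), with 1200 at an unadjusted p under 0.05 (6.61%). CALCB (ENSG00000175868, chromosome 11, 14904997 to 15082342), which encodes a neuropeptide of the calcitonin gene family, had 5.97, 6.14 and 4.44 CPM in WT granules and 28.5, 18.9 and 21.3 CPM in WDM granules (log2 2.06, SE 0.202, adjusted p 2.48e-08). In cytosol it had 8.21 ± 0.879 CPM in WT and 11.0 ± 1.12 CPM in WDM (SD, n = 3; log2 0.43, adjusted p 0.0859). The interaction was 1.64 on the log2 scale (SE 0.255, adjusted p 0.0086). The call was lost without WT granule replicate 3, where 0 genes were called. The granule difference was also present without arsenite, with means of 4.65 CPM for WT against 32.5 CPM for WDM (log2 2.77).

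In granules without arsenite, 1019 of 18366 genes were called between the lines (5.55%), and 538 were called in both conditions, all 538 in the same direction. That is 36.8% of the arsenite calls, where 5.55% of all genes were called without arsenite, and 52.8% of the calls without arsenite, where 7.95% of all genes were called with it. Over these genes r was 0.619 and rho 0.267. Genes called with the same sign in all 3 comparisons numbered 426, with 228 higher and 198 lower. The difference between conditions was tested as an interaction and called 0 genes in edgeR and 0 in DESeq2, with 2329 genes at an unadjusted p under 0.05 (12.7%). With GC offsets the interaction again called 0 genes, with 1455 at an unadjusted p under 0.05. By its smallest p-values without offsets the genes were KMT2B, MUC16, GPR180, NAE1 and ATN1, with adjusted p from 0.173 to 0.252. KMT2B and ATN1 are GC-rich (63.5% and 64.1%), with log2 interactions of 1.19 and 1.15. GPR180 and NAE1 are GC-poor (36.7% and 40.4%), with -1.18 and -1.04. MUC16, at 50.3% GC, had 1.35. KMT2B, a histone methyltransferase gene, had 145, 160 and 174 CPM in WT and 214, 287 and 291 CPM in WDM under arsenite (log2 0.73), and 169 and 122 CPM on average without it (log2 -0.46). KMT2B had an adjusted p of 0.0517 under arsenite with GC offsets.

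Because TIA1 binds U-rich RNA, the number of TTTTT matches per transcript length, overlapping matches included, was compared with the line difference. The median log2 fold change was 0.20 in the lowest of 10 density bins and -0.09 in the highest. The lowest median, -0.13, was in bin 8. TTTTT density follows GC content, so the genes were also divided into 5 bins of GC content and then 5 of density. In the lowest GC bin the medians were -0.13 for the lowest density, -0.25 in the middle bin and -0.18 for the highest. In the highest GC bin they were 0.23, 0.25 and 0.23. With GC offsets the lowest and highest density bins had medians of 0.06 and 0.02. Transcript length was related to the line difference by a rho of -0.135, and -0.0518 with GC offsets.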

How the data were processed

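Per the labels, RNA came from immunopurified TIA1 granules and from cellular extracts, and libraries were made with a stranded, rRNA-depleting total RNA kit. The authors deposited raw read counts per gene in 1 table of 30 libraries. The submitters' processing notes name Trimmomatic, STAR, Picard, featureCounts and GRCh38; their settings, the strand setting included, are not given in the sources used here, so overlapping genes and near-identical copies are uncertain. Of 60664 gene identifiers, 60463 were found in GENCODE 44, all on the same chromosome, and 56693 with identical coordinates.

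Tests ran in R 4.3.3 with edgeR 4.0.16, using filterByExpr (minimum count 10, minimum total 15), TMM factors, group means, robust quasi-likelihood F-test, and Benjamini-Hochberg adjustment over all genes tested, with calls under 0.05. The 12 granule libraries were fitted together (biological coefficient of variation 0.161), the 18 cytosol libraries together (0.103), and 24 tetracycline-treated libraries for the fraction interaction (0.145). Standard errors are the log2 fold change divided by the square root of F. GC offsets removed each library's lowess trend (span 0.3) of log2 CPM on GC content. Alternatives were length offsets, RLE factors, scaling by library size only, no low-count filter, a replicate block, each library left out, the compared groups alone, and DESeq2 1.42.0. The script was tested on simulated data. Tables used Python 3.11.15, pandas 2.3.3 and matplotlib 3.10.9.

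Replicate pairs of a group differed by 19.3 to 28.9 chi-square units per degree of freedom, so each counted once. Ratios with 1 or more counts in the lower group carry exact binomial 95% intervals, and those intervals and floors of 3 counts cover counting error only. The labels give no batch. The comparison, the 27 gene lists (1032 of 1313 members tested) and the rules were chosen with earlier results of these data known. Named genes are TIA1, TIAL1, C2orf42, list members, up to 12 genes in each direction by size, genes called in the fraction interaction, the 6 called genes of highest CPM, and the 5 smallest p-values of the arsenite interaction.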

Additional observations from a re-analysis of the deposited data

Results flagged for a closer look

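The line difference was larger in granules than in cytosol under arsenite for 1 gene, CALCB, by the test of the difference between fractions. Its interaction was 1.64 on the log2 scale (edgeR Benjamini-Hochberg adjusted p 0.0086), and all 3 WDM granule libraries lay above all 3 WT granule libraries. The number of genes called by this test was 1 of 18141. It was 0 without WT arsenite granule replicate 3 and 2 without WDM arsenite cytosol replicate 2.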

How the results depend on the processing

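The arsenite granule comparison called 1423 genes with RLE factors, 1357 with library size alone, 1537 without the filter, 1189 with GC offsets, 1456 with length offsets, 1510 with only the groups compared and 1689 with DESeq2, against 1460. It called 569 to 1719 with 1 library left out, and 587 with GC offsets and without WT replicate 1, an alternative chosen after seeing the data. The comparison without arsenite called 570 to 1330 genes with 1 library left out, against 1019, and the cytosol comparison 1094 to 2205, against 1726. The interaction of arsenite and line called 44 genes without the filter and 0 to 5 with 1 library left out, and the fraction interaction 0 to 2. Libraries of different lines with the same replicate number had correlations of their deviations of -0.151, -0.205 and 0.326. Those with different numbers ran from -0.375 to 0.521, so the numbers were not taken as pairs. These correlations cover 3 libraries of each line and do not settle pairing in the other groups. With the replicate block the arsenite granule comparison called 1259 genes, 1069 with GC offsets as well. The cytosol comparison then called 2314, against 1726 without the block. Of the 24 genes with the largest differences, 24 stayed called in every alternative run. Of 115 list members called, 47 did, 33 lost their call with GC offsets and 60 without WT replicate 1, and 0 changed sign. At 3 libraries a group, and with WT replicate 1 apart in its GC trend, modest differences of GC-rich or GC-poor genes are the least certain; the cause of that trend was not tested.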
